A study of Mus musculus with 12 samples.

Results

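Muscle fibers take calcium back into the sarcoplasmic reticulum (SR) with SERCA pumps, and the level of the pumps, their small inhibitors and the buffers of the SR lumen was followed here through 9 genes in the RNA of single muscle fibers. The genes were the pumps *Atp2a1* and *Atp2a2*, the inhibitors *Sln* (sarcolipin) and *Pln* (phospholamban), the calsequestrins *Casq1* and *Casq2*, and the SR proteins *Srl* (sarcalumenin), *Hrc* (histidine-rich calcium-binding protein) and *Asph*, chosen by their symbols. All 9 of the 55367 gene symbols in the files were found, and all 9 were among the 14430 genes tested. The fibers came from a fast hindlimb muscle, the extensor digitorum longus (EDL), of C57BL/6J mice, and RNA-seq gave 12 samples in 3 groups of 4. The Young group came from mice of 3 to 4 months. The Aged normal and Aged abnormal groups, called Fluo-4 normal and Fluo-4 abnormal fibers here, came from mice of 26 to 28 months and were separated under a fluorescence stereomicroscope by staining with Fluo-4, a calcium indicator, with intense aberrant staining in the abnormal fibers. The labels give no genetic change or treatment for any group, and all fibers had been freed with collagenase. The aged mice came from a source of their own, so age and source cannot be told apart, and the numbers of mice and fibers behind a sample were not given in the sources used here. Values are in TPM, a transcript abundance that divides reads by transcript length and sets each sample to the same total.

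SERCA pumps spend ATP to move calcium from the cytosol into the SR, which ends a contraction. Fast fibers use SERCA1, the product of *Atp2a1*, whereas slow and cardiac muscle use SERCA2 from *Atp2a2*. Sarcolipin, phospholamban and myoregulin (*Mrln*) are membrane micropeptides that bind the pump and lower its activity, and calsequestrin is the polymer that holds most of the calcium inside the SR. Tubular aggregates are packed tubules of SR membrane seen in some muscle diseases and in aging fast fibers.

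The micropeptides are encoded by very short reading frames, each within 1 exon. The 3 frames are shown because the balance of pump and inhibitor turned on which of these transcripts was counted. They were read from GRCm39, 5′ to 3′ on the plus strand, and capitals mark the start and stop codons.
*Sln*, 31 codons, chr9:53760757-53760852: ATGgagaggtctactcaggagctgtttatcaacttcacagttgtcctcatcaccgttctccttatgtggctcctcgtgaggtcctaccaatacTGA
*Pln*, 52 codons, chr10:53219960-53220118: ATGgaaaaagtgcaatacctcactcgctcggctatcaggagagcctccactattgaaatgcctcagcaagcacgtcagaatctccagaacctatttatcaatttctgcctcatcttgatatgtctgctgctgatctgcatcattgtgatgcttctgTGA
*Mrln*, 46 codons, chr10:70055326-70055466: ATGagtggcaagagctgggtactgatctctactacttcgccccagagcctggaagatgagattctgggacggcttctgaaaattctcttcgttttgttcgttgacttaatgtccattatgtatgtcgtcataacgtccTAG

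The samples had the RNA of fast fibers. The summed TPM of 7 fast fiber genes, from myosin heavy chain *Myh4* to actinin *Actn3*, was 107899 to 145762 in the 12 samples, and that of 7 slow fiber genes was 2.86 to 13.1. Among 4 cardiac genes *Tnni3* was at 0 in every sample and the sum was at most 3.11. Summed markers of smooth muscle were at 47.5 to 112, fibroblasts at 13.2 to 77.9, endothelium at 1.33 to 8.70, Schwann cells at 0.511 to 2.15 and satellite cells at 0.075 to 0.534 TPM, and both adipocyte genes were at 0. The smooth muscle sum was mostly *Smtn* (46.9 to 70.5 TPM). It was highest in Young sample 2, where *Acta2* was at 37.1, *Myh11* at 6.44 and *Cnn1* at 3.18 TPM. Immune markers were at 0.718 to 1.47 in Young and 4.97 to 14.4 in aged samples. The aged sum was mostly *Lyz2*, at 4.58 to 13.8 TPM in Fluo-4 normal and 6.69 to 10.5 TPM in Fluo-4 abnormal samples. *Ptprc* was at most 0.262 and *Adgre1* at most 0.011 TPM. *Cd68* had a mean of 0.282 TPM in both Young and Fluo-4 normal and 1.04 TPM in Fluo-4 abnormal samples. The last mean rested on abnormal sample 4, as the 4 samples were at 0.484, 0.449, 0.407 and 2.84 TPM. Globin and other red cell transcripts were at 21.2 to 77.6 in Young, 76.4 to 297 in Fluo-4 normal and 27.1 to 147 in Fluo-4 abnormal samples. Mitochondrially encoded genes took 7.35% to 8.01% of the TPM in Young, 8.75% to 10.9% in Fluo-4 normal and 4.75% to 6.92% in Fluo-4 abnormal fibers, a difference that a scaling of all genes to 1 total spreads over every other gene.

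The 9 genes together made up 2.45% ± 0.0894 (SD, n = 4) of all TPM in Young, 2.02% ± 0.302 in Fluo-4 normal and 2.69% ± 0.241 in Fluo-4 abnormal fibers. *Atp2a1* alone held 82.3% ± 0.554, 85.7% ± 2.35 and 85.2% ± 1.49 of that sum in the same order. The levels ran over several orders of magnitude. By mean TPM among the tested genes *Atp2a1* ranked 9 to 10 and *Casq1* 32 to 46 in the 3 groups, *Srl*, *Asph* and *Hrc* ranked between 252 and 771, and *Atp2a2*, *Sln*, *Pln* and *Casq2* ranked from 3701 downward.

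**Figure D1:**
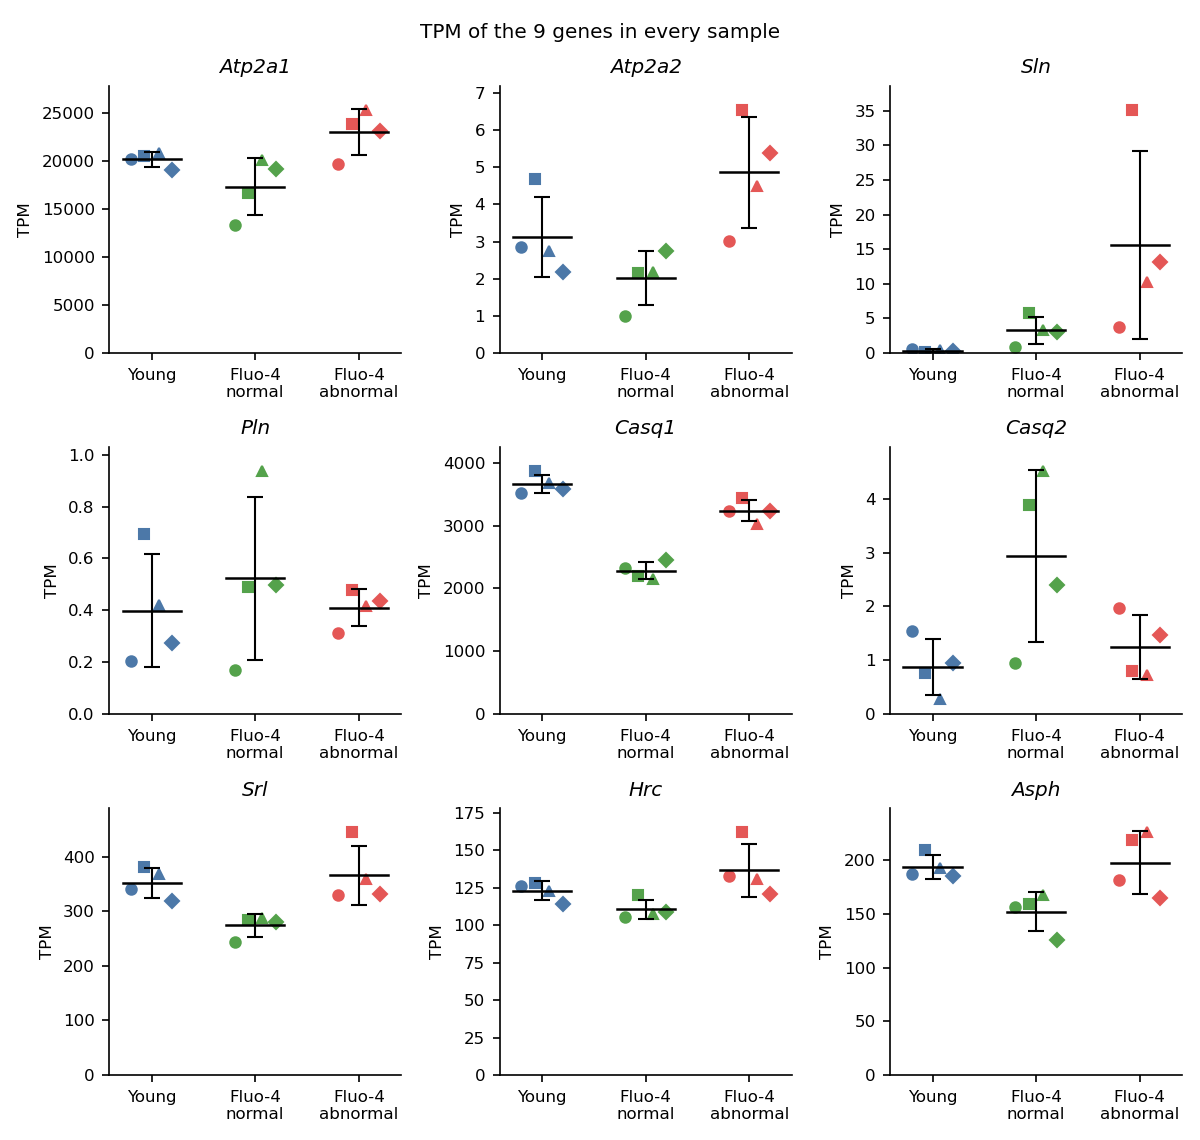
TPM (linear axis from 0) of the 9 genes in each of the 12 samples, by group. Points are samples, with the replicate number shown by circle (1), square (2), triangle (3) and diamond (4), and lines and bars are the mean ± SD of 4. *Casq1* was lowest in the Fluo-4 normal samples with no overlap with either other group, and *Sln* was highest in the Fluo-4 abnormal samples.

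*Atp2a1* (ENSMUSG00000030730.14, chr7:126045013-126063423, minus strand, GRCm39) encodes the fast pump. Its level was 20231, 20521, 20842 and 19070.45 TPM in Young samples 1 to 4. In Fluo-4 normal samples 1 to 4 it was 13369, 16715, 20141 and 19139.9 TPM. In Fluo-4 abnormal samples 1 to 4 it was 19679, 23895, 25279.6 and 23086 TPM. Sample 1 was the lowest of both aged groups, and the ranges of all 3 groups overlapped. The mean was 22985 ± 2383 (SD, n = 4) in abnormal against 17341 ± 3014 in normal fibers, a change of 0.42 ± 0.14 (SE) on the log2(TPM + 1) scale that did not pass in limma's moderated test (adjusted p = 0.0705). With the replicate block, a term for the sample number in the labels, the adjusted p was 0.0494. The change passed under 4 of the 20 alternatives tried, with adjusted p of 0.0176 to 0.598 over all 20. Against Young the changes were 0.18 for abnormal (adjusted p = 0.467, limma) and -0.23 for normal fibers (adjusted p = 0.513).

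*Atp2a2* (ENSMUSG00000029467.17, chr5:122591575-122640903, minus strand) encodes the pump of slow and cardiac muscle. It has 54 annotated transcripts that a TPM per gene cannot tell apart, so its values cannot be assigned to 1 form of the pump. The gene was at 2.85, 4.68, 2.75 and 2.19 TPM in Young samples. It was at 1.01, 2.15, 2.18 and 2.75 TPM in Fluo-4 normal and at 3.01, 6.54, 4.50 and 5.39 TPM in Fluo-4 abnormal samples. The 4 abnormal samples were all above the 4 normal ones, and both overlapped Young. The abnormal samples did so only through Young sample 2 (4.68 TPM), which also had the highest smooth muscle sum. A link between that sum and *Atp2a2* was not tested. The change between abnormal and normal fibers was 0.95 ± 0.25 (SE, adjusted p = 0.0296, limma), 2.40-fold in mean TPM. The call was lost without Fluo-4 normal replicate 1 or 2 or Fluo-4 abnormal replicate 2, 3 or 4, with adjusted p of 0.0634 to 0.103 and changes of 0.77 to 0.99. *Atp2a2* shares exon sequence on the opposite strand with *Anapc7* (112 bases, 3.13 to 6.96 TPM across samples), and reads were counted without strand. The third pump gene, *Atp2a3*, was at 0.074 to 0.673 TPM in all samples.

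*Sln* (ENSMUSG00000042045.8, chr9:53742537-53761846, plus strand) encodes the inhibitor that in muscle also makes the pump spend ATP without moving calcium. It was at 0.597, 0.117, 0.438 and 0.282 TPM in Young samples and at 0.929, 5.77, 3.39 and 3.07 TPM in Fluo-4 normal samples. In Fluo-4 abnormal samples it was at 3.76, 35.1, 10.3 and 13.1 TPM. Every aged sample was above every Young sample, and abnormal sample 1 lay within the range of the normal samples. Within each number of the labels the abnormal sample was higher than the normal one in 4 of 4 pairs, by 3.04-fold to 6.08-fold.

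The change of *Sln* was 3.26 ± 0.50 (SE, adjusted p = 0.00175, limma) between abnormal and Young fibers and passed under each of the 18 alternatives tried, with values of 2.76 to 4.80. Between abnormal and normal fibers it was 1.72 ± 0.50 (adjusted p = 0.0461, limma). That call was lost when any sample of the pair of groups other than Fluo-4 abnormal replicate 1 was left out. The adjusted p was then 0.0560 to 0.134 and the change 1.22 to 1.98, with the lowest value in the absence of abnormal replicate 2. Between normal and Young fibers the change was 1.54 (adjusted p = 0.168, limma), and 2.77 (adjusted p = 0.0357) when 0.1 rather than 1 TPM was added before the logarithm. A pseudocount of 1 exceeds all Young values of *Sln*, so these changes understate the ratio of means, which was 43.4 for abnormal over Young. That ratio has its own limits. The Young mean was 0.3585 TPM, near the limit of what TPM lists of unknown depth resolve. The abnormal mean of 15.6 TPM included replicate 2 at 35.1 TPM, and the abnormal median was 11.7 TPM.

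*Pln* (ENSMUSG00000038583.15, chr10:53199622-53223512, plus strand), the inhibitor known from heart, stayed under 1 TPM in all samples. Its values were 0.204, 0.695, 0.421 and 0.275 TPM in Young, 0.168, 0.489, 0.936 and 0.499 TPM in Fluo-4 normal and 0.311, 0.479, 0.416 and 0.436 TPM in Fluo-4 abnormal samples. The 3 ranges overlapped throughout, and the change between abnormal and normal fibers was -0.09 ± 0.14 (adjusted p = 0.726, limma). *Pln* shares 2688 exon bases on the opposite strand with the non-coding gene *Gm47644* (0.077 to 1.35 TPM) and 141 with *Cep85l* (6.05 to 22.1 TPM), so its low reads are uncertain.

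*Casq1* (ENSMUSG00000007122.13, chr1:172037459-172049328, minus strand), the fast calsequestrin, had values of 3522, 3867, 3687 and 3582 TPM in Young samples. It was at 2329.8, 2194, 2154 and 2458 TPM in Fluo-4 normal and at 3235, 3443, 3034 and 3240.2 TPM in Fluo-4 abnormal samples. None of the 3 groups overlapped, with Young the highest, abnormal in between and normal the lowest. The change between normal and Young fibers was -0.68 ± 0.07 (SE, adjusted p = 0.000421, limma) and passed under each of the 18 alternatives tried. Between abnormal and normal fibers it was 0.50 ± 0.07 (adjusted p = 0.00174), 1.42-fold, and passed under 18 of 20 alternatives. The 2 others set the samples to a common level by TMM-type factors, where the change was 0.31 (adjusted p = 0.138) and, with the replicate block, 0.31 (adjusted p = 0.160). The change of -0.18 between abnormal and Young fibers did not pass (adjusted p = 0.149, limma). *Casq1* also shares 291 exon bases with the antisense RNA *Gm17224*, which was at 3.44 to 8.82 TPM.

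*Casq2* (ENSMUSG00000027861.15, chr3:101993234-102056307, plus strand), the slow and cardiac calsequestrin, was at 1.54, 0.764, 0.276 and 0.943 TPM in Young samples. Its values were 0.949, 3.89, 4.52 and 2.41 TPM in Fluo-4 normal and 1.97, 0.796, 0.722 and 1.48 TPM in Fluo-4 abnormal samples. Normal samples 2, 3 and 4 were above all abnormal and Young samples, and normal sample 1 was within both ranges. The change was 1.00 ± 0.31 between normal and Young fibers (adjusted p = 0.152, limma) and -0.74 ± 0.31 between abnormal and normal fibers (adjusted p = 0.153). Without Fluo-4 normal replicate 1 both passed, at 1.31 (adjusted p = 0.0386) and -1.05 (adjusted p = 0.0391). The fast type IIX myosin *Myh1* was also lowest in normal sample 1, at 46.2, 542, 488 and 262 TPM in normal samples. In abnormal samples it was at 64.5, 147, 48.5 and 44.3 TPM, highest in sample 2, where *Casq2* was highest in sample 1. With the share of *Myh4* in the sum of *Myh1*, *Myh2*, *Myh4* and *Myh7* as a covariate, the change of *Casq2* between abnormal and normal fibers was 0.08. That share was 93.7% to 99.2% in normal and 98.9% to 99.7% in abnormal samples, so the covariate is not separate from the groups. The part of fiber type in *Casq2* was not tested.

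*Srl* (ENSMUSG00000022519.16, chr16:4294124-4359680, minus strand) encodes sarcalumenin, a calcium-binding protein of the SR lumen near the pump. Its values were 341, 380.5, 368 and 319 TPM in Young, 244, 283, 288 and 280.3 TPM in Fluo-4 normal and 330.1, 445, 359.9 and 331 TPM in Fluo-4 abnormal samples. All normal samples were below all samples of both other groups. The change was 0.41 ± 0.10 between abnormal and normal fibers (adjusted p = 0.0197, limma) and -0.36 ± 0.10 between normal and Young fibers (adjusted p = 0.102). The first was 0.36 without Fluo-4 normal replicate 1 (adjusted p = 0.0555) and 0.31 without Fluo-4 abnormal replicate 2 (adjusted p = 0.0513).

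*Hrc* (ENSMUSG00000038239.13, chr7:44984681-44988401, plus strand) encodes a luminal protein that binds calcium and triadin. It was at 126, 128, 123 and 114 TPM in Young, 106, 119.9, 108 and 109 TPM in Fluo-4 normal and 132, 162, 131 and 121 TPM in Fluo-4 abnormal samples. Each abnormal sample was above each normal one, though the lowest of the former (121 TPM) was close to the highest of the latter (119.9 TPM). The change was 0.30 ± 0.08 (adjusted p = 0.0437, limma).

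*Asph* (ENSMUSG00000028207.20, chr4:9448069-9669357, minus strand) gives junctin and junctate of the SR as well as an aspartyl hydroxylase, from 109 annotated transcripts that a TPM per gene cannot tell apart. It was at 187, 209, 192 and 185 TPM in Young, 156, 159, 167 and 126 TPM in Fluo-4 normal and 181, 218, 226 and 165 TPM in Fluo-4 abnormal samples. Abnormal sample 4 lay within the range of the normal ones, and all normal samples were below Young. The change was 0.37 ± 0.11 between abnormal and normal fibers (adjusted p = 0.0474, limma). The calls of *Hrc* and *Asph* were each lost in 6 of the 8 fits that left out 1 sample. *Hrc* passed only without normal replicate 2 or abnormal replicate 4, and *Asph* only without normal replicate 3 or abnormal replicate 4.

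**Figure D2:**
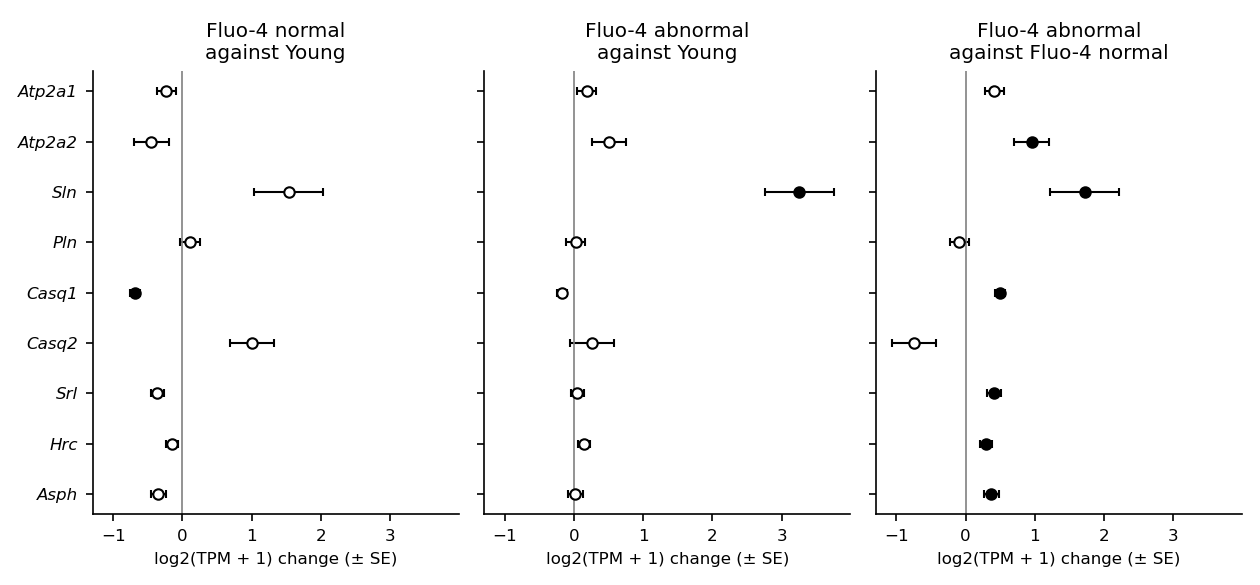
Change of the 9 genes on the log2(TPM + 1) scale in the 3 comparisons, with bars of ± SE from limma's fit of all 12 samples. Filled points have an adjusted p under 0.05. *Casq1* was filled on the left, *Sln* in the middle, and 6 genes, all to the right of 0, on the right.

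Across the 9 genes the comparison of Fluo-4 abnormal with Fluo-4 normal fibers had 6 that passed, and all 6 rose: *Atp2a2*, *Sln*, *Casq1*, *Srl*, *Hrc* and *Asph*. Of all tested genes 7.36% rose and 1.99% fell in that comparison. The groups did not overlap for 4 of the 9, against 14.0% of all genes tested. The median change was 0.41 over the 9 genes, 0.10 over the 14430 tested and 0.20 over the 5994 of them with a mean of at least 5 TPM. The count depended on the scale of the samples. It was 1 with TMM-type factors, where *Atp2a2* passed, 3 with the mitochondrially encoded genes left out of the scaling and 7 with the replicate block. It was also 1 in the absence of Fluo-4 abnormal replicate 2, 2 without normal replicate 1 (*Casq1* and *Casq2*, the latter lower) or without abnormal replicate 3, and 3 without normal replicate 2 or 4.

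In the comparison of Fluo-4 abnormal with Young fibers 1 of 9 passed, *Sln*, which was higher. Of all genes 6.09% were called higher and 2.41% lower, and the groups of 2 of the 9 genes (*Sln* and *Casq1*) did not overlap, against 16.2% of all genes. In Fluo-4 normal against Young fibers 1 of 9 passed, *Casq1*, which was lower, where 0.561% of all genes were called higher and 0.589% lower. The groups did not overlap for 4 of the 9 (*Sln*, *Casq1*, *Srl* and *Asph*), against 7.98% of all genes. The comparisons share samples in pairs, and their medians over the 9 genes were 0.14 for abnormal against Young and -0.23 for normal against Young, beside 0.07 and -0.02 over all genes tested.

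**Figure D3:**
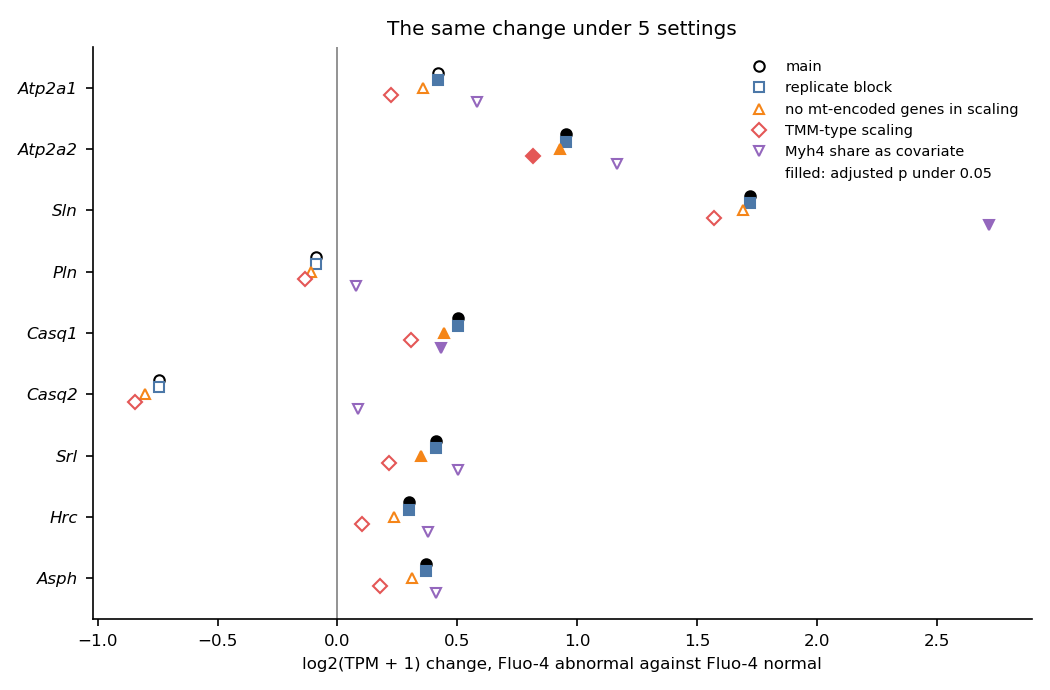
Change between Fluo-4 abnormal and Fluo-4 normal fibers on the log2(TPM + 1) scale for each gene under 5 settings, drawn with 1 symbol each. Filled symbols have an adjusted p under 0.05. With TMM-type factors the points of the 7 genes above 0 moved toward 0 and *Atp2a2* alone was filled, and with the *Myh4* share as a covariate *Sln* and *Casq1* were filled.

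Ratios taken within a sample do not depend on its scale. The pump to inhibitor ratio, (*Atp2a1* + *Atp2a2*) over (*Sln* + *Pln*) in TPM, was 25260.3, 25277.5, 24266 and 34242 in Young samples. It was 12188, 2669, 4653 and 5364 in Fluo-4 normal and 4841, 672, 2355 and 1702 in Fluo-4 abnormal samples. All Young samples were above all aged ones, whereas the aged groups overlapped. The geometric mean was 5.06-fold lower in normal than in Young fibers (two-sided exact permutation p = 0.0286, adjusted p = 0.0857 over 12 tests) and 14.2-fold lower in abnormal than in Young fibers (exact p = 0.0286, adjusted p = 0.0857). Between abnormal and normal fibers it was 2.81-fold lower (exact p = 0.0857, adjusted p = 0.129). It was lower in the abnormal sample in 4 of 4 same-numbered pairs, by 1.98-fold to 3.97-fold, and 4 pairs are too few for a two-sided exact paired test to reach 0.05. With 4 against 4 samples 0.0286 is the smallest p that the 70 arrangements allow. Of the 12 tests 4 reached it, and none passed after adjustment. Even this smallest p passes the adjustment only if most of the 12 tests reach it. That none passed therefore does not speak to the size of any single difference.

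This ratio rested on low transcripts, and *Mrln* was far more abundant than either. Myoregulin was at 327, 347, 319 and 344 TPM in Young, 295, 233, 303 and 215 TPM in Fluo-4 normal and 308, 302, 338 and 296 TPM in Fluo-4 abnormal samples. The abnormal samples overlapped both other groups, and all normal samples were below Young. No comparison of *Mrln* passed (2 of 3 had an unadjusted p under 0.05), with changes of 0.26 (adjusted p = 0.114, limma) for abnormal against normal and -0.37 (adjusted p = 0.103) for normal against Young fibers. With *Mrln* added to the inhibitors the sign of the log2 ratio turned, to 0.10 for abnormal against normal, 0.22 for abnormal against Young and 0.12 for normal against Young fibers, with exact adjusted p of 0.137 to 0.714. *Atp2a1* per *Mrln* was 60.5 ± 4.22 (SD, n = 4) in Young, 68.2 ± 18.0 in normal and 73.9 ± 6.91 in abnormal fibers. Another-regulin, entered as *1810037I17Rik* with the RefSeq synonym *Aln*, was at 28.1 to 39.5 TPM with no comparison passed, and *Strit1*, whose peptide activates the pump, was listed at 0 in every sample.

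The pump to calsequestrin ratio, with *Casq1* + *Casq2* below, was 5.74, 5.31, 5.65 and 5.32 in Young samples. It was 5.74, 7.61, 9.33 and 7.78 in Fluo-4 normal and 6.08, 6.94, 8.33 and 7.12 in Fluo-4 abnormal samples. All abnormal samples were above Young, and normal sample 1 was at the level of Young. The ratio was 1.29-fold higher in abnormal than in Young fibers (exact p = 0.0286, adjusted p = 0.0857) and 1.36-fold higher in normal than in Young fibers (exact p = 0.0571, adjusted p = 0.114). Abnormal and normal fibers had a difference of -0.08 in log2 (exact p = 0.629, adjusted p = 0.629), and the range of the abnormal samples lay inside that of the normal ones.

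Within the pair of pump genes the *Atp2a1* to *Atp2a2* ratio was 7089, 4384, 7568 and 8692 in Young, 13237, 7782, 9248 and 6959.95 in Fluo-4 normal and 6531, 3656, 5614 and 4282 in Fluo-4 abnormal samples. Each abnormal sample had a lower ratio than any normal sample, 1.84-fold in geometric mean (exact p = 0.0286, adjusted p = 0.0857), and both overlapped Young. The abnormal samples did so only through Young sample 2 (4384). The *Casq1* to *Casq2* ratio was 2290.3, 5062, 13358 and 3798 in Young, 2455, 564, 477 and 1021 in normal and 1641, 4326, 4202 and 2191 in abnormal samples. It was 5.43-fold lower in normal than in Young fibers (exact p = 0.0571, adjusted p = 0.114) and 3.14-fold higher in abnormal than in normal fibers (exact p = 0.0857, adjusted p = 0.129). In both of these comparisons normal sample 1 lay in the range of the other group.

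**Figure D4:**
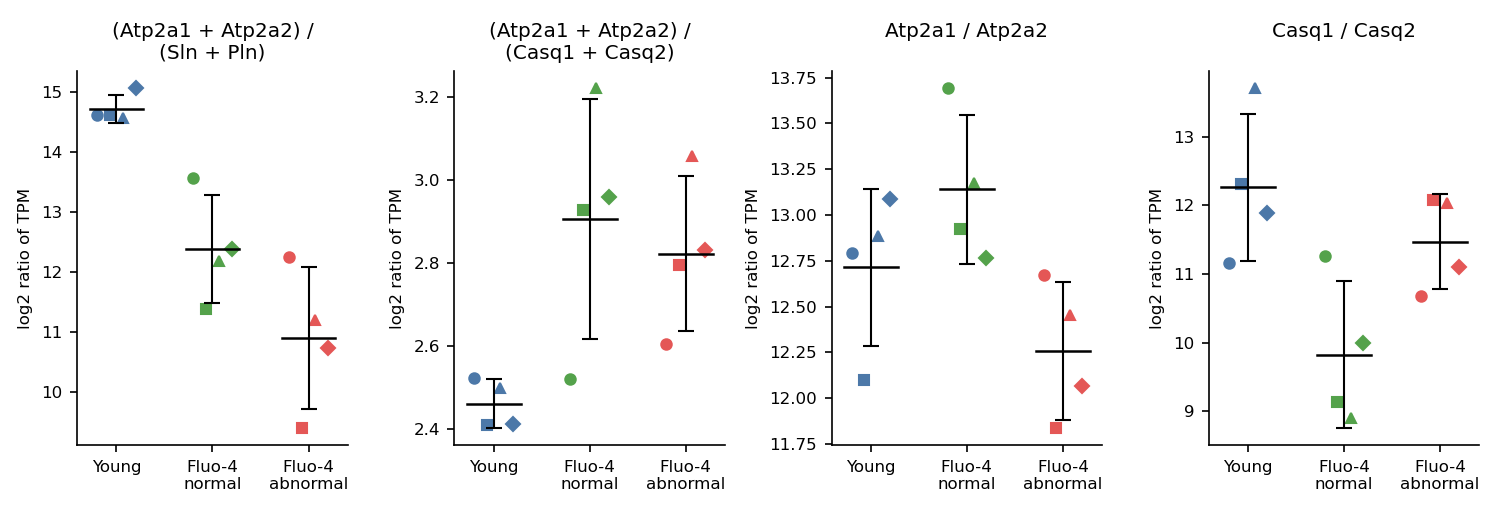
Log2 of 4 ratios of TPM in each sample, by group, with symbols for replicate numbers 1 (circle), 2 (square), 3 (triangle) and 4 (diamond) and lines and bars for the mean ± SD of 4. The axes do not start at 0. The pump to inhibitor ratio was highest in Young samples, and the *Atp2a1* to *Atp2a2* ratio of every Fluo-4 abnormal sample was below every Fluo-4 normal sample.

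The other luminal genes were also set against *Casq1*. *Srl* per 1000 TPM of *Casq1* was 96.0 ± 4.81 (SD, n = 4) in Young, 120.4 ± 13.5 in Fluo-4 normal and 113 ± 13.3 in Fluo-4 abnormal fibers. *Hrc* per 1000 of *Casq1* was 33.6 ± 1.66, 48.5 ± 4.75 and 42.1 ± 4.10 in the same order. For both *Srl* and *Hrc* all aged samples were above all Young ones. *Asph* per 1000 of *Casq1* was 52.7 ± 1.08, 67.1 ± 11.5 and 61.2 ± 10.2, with sample 4 of both aged groups below all Young samples. These ratios were not tested.

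The region before the start of *Casq1* is shown as the gene with the firmest change, beside that of *Atp2a1*. RefSeq promoter sequences on GRCm38.p6 had an entry for 5 of the 9 genes (*Atp2a1*, *Pln*, *Casq1*, *Casq2* and *Hrc*). The 250 bases before the start, 5′ to 3′ on the minus strand, hold the E-box letters CANNTG, which read alike on both strands, in capitals.
*Casq1*, chr1:172219896-172220145: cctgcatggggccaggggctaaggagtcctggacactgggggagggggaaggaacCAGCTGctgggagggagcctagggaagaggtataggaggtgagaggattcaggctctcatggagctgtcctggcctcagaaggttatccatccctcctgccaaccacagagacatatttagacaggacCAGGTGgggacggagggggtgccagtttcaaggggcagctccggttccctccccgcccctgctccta
*Atp2a1*, chr7:126463074-126463323: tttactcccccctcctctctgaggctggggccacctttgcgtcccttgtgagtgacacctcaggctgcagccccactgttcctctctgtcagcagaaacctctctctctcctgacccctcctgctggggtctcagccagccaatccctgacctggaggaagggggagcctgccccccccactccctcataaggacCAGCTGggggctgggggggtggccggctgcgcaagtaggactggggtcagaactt
All 5 genes with an entry held CANNTG, as did 66.2% of the 32851 promoters of the table, and the form CAGCTG was in 3 of the 5 and in 13.0% of all. A match in letters is no evidence of binding.

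The genes around the pump and the calsequestrins were read from lists. Of 17 genes of the triad, where the SR meets the transverse tubule, all 17 had a positive change between abnormal and normal fibers and 10 passed, with a median of 0.44. Over all tested genes the median was 0.10 (0.20 at 5 TPM or more) and 7.36% rose. The 10 held the calcium release channel *Ryr1* (0.72, adjusted p = 0.0474, limma), the voltage sensor subunits *Cacna1s* (0.63, adjusted p = 0.0131) and *Cacng1* (0.80, adjusted p = 0.00242), and their adaptor *Stac3* (0.52, adjusted p = 0.00395). They also held the junctophilins *Jph1* (0.67) and *Jph2* (0.55), which tie both membranes together, *Fkbp1a* (0.25), *Sypl2* (0.27) and the counter-ion channels *Tmem38a* (0.20) and *Tmem38b* (0.44), with adjusted p of 0.00334 to 0.0450. Triadin (*Trdn*), which anchors calsequestrin to the channel, was at 1412 TPM in normal and 1975 TPM in abnormal fibers on average (0.52, adjusted p = 0.0775). With TMM-type factors 16 of the 17 changes were positive and 5 passed (*Cacna1s*, *Cacng1*, *Stac3*, *Jph1* and *Jph2*), 6 passed with the mitochondrially encoded genes left out of the scaling, 4 without abnormal replicate 2 and 6 without normal replicate 4. With only the groups compared in the fit 6 passed, and with the *Myh4* share as a covariate 5, whereas 13 of the 14 tested passed at a filter of 5 TPM. With the replicate number as a block 8 passed (*Sypl2* and *Tmem38a* did not), and with the block and TMM-type factors 1 passed, *Jph1*. In normal against Young fibers 3 of the 17 fell (*Stac3*, *Jph2* and *Sypl2*, by 0.48, 0.57 and 0.54), against 0.589% of all tested genes. The count was 1 (*Sypl2*) with only the groups compared in the fit, and also without Young replicate 2 or 3 or normal replicate 2 or 4. In abnormal against Young fibers 3 rose (*Cacng1*, *Jph1* and *Tmem38b*) and *Sypl2* fell, against 6.09% of all tested genes that rose and 2.41% that fell. There *Jph1* did not pass without Young replicate 1, 3 or 4 or abnormal replicate 2, 3 or 4. *Sypl2* did not pass without Young replicate 1, 2 or 3 or abnormal replicate 3 or 4.

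Of 8 genes of calcium-binding chaperones and other luminal proteins of the endoplasmic reticulum, 6 rose between normal and abnormal fibers, with a list median of 0.51, against 7.36% and a median of 0.10 over all tested genes. They were calreticulin *Calr* (0.72, adjusted p = 0.00430, limma), calnexin *Canx* (0.69), *Hspa5* (0.71), *Hsp90b1* (0.62), *Calu* (0.40) and *Sdf4* (0.40), with adjusted p of 0.00430 to 0.0240. With TMM-type factors 7 of the 8 changes were positive and 4 passed (*Calr*, *Canx*, *Hspa5* and *Hsp90b1*), and without abnormal replicate 2, or with only the groups compared in the fit, the count was 3. With the replicate block 5 passed (*Calu* did not), and with the block and TMM-type factors 3 (*Calr*, *Canx* and *Hsp90b1*). Against Young fibers 5 rose in abnormal fibers (*Calr*, *Canx*, *Hspa5*, *Hsp90b1* and *Sdf4*), where 6.09% of all tested genes rose, while *Rcn1* fell by 0.84 and was also lower in normal fibers, where it fell by 1.12. Only 3 rose (*Hspa5*, *Hsp90b1* and *Sdf4*) without Young replicate 1 or 3 or abnormal replicate 2, 3 or 4. Without Young replicate 4 the count was 2 (*Hspa5* and *Sdf4*). *Hspa5* was 142 TPM on average in normal, 143 in Young and 231 in abnormal fibers, so that unlike *Casq1* its level in abnormal fibers was above that in Young fibers as well.

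**Figure D5:**
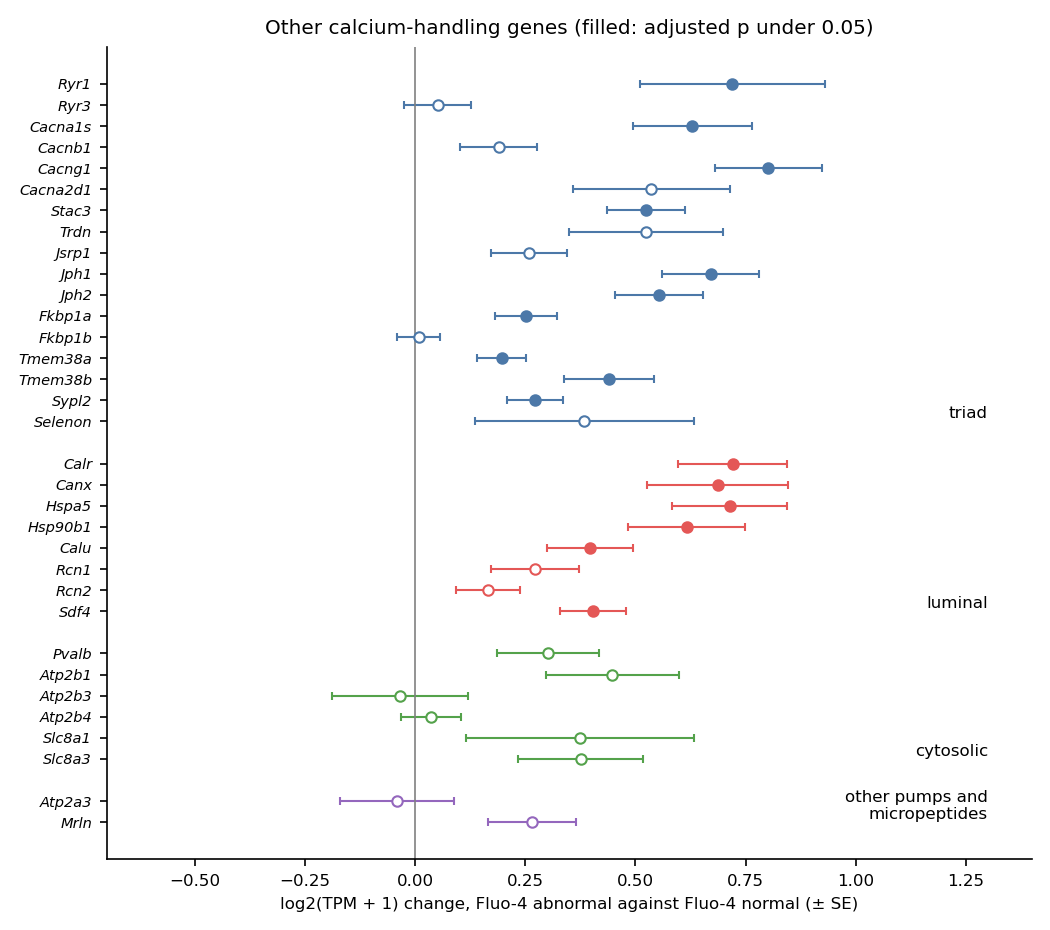
Change between Fluo-4 abnormal and Fluo-4 normal fibers on the log2(TPM + 1) scale with ± SE for the tested genes of 4 lists (triad, luminal, cytosolic calcium removal, other pumps and micropeptides). Filled points have an adjusted p under 0.05, which held for 10 of 17 triad and 6 of 8 luminal genes and for none of the other 8.

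Fiber type genes moved beside these results. *Myh4* was at 6254 to 9813 TPM in Fluo-4 normal and 10770.1 to 15574 TPM in Fluo-4 abnormal samples and was called higher (0.66, adjusted p = 0.0198, limma), as was *Actn3* (0.77, adjusted p = 0.00727), and 5 of 7 fast fiber genes had a positive change, or 2 of 7 with TMM-type factors. *Myh4* did not pass with TMM-type factors or without normal replicate 1, abnormal replicate 2 or abnormal replicate 3, and neither gene passed with only the groups compared in the fit or with the replicate block and TMM-type factors. The other 2 fast fiber genes had a negative change. *Myh1* was at 334 TPM in normal and 76.1 TPM in abnormal fibers on average (-1.81, adjusted p = 0.0870, limma), and *Myh2* changed by -0.37 (adjusted p = 0.732). *Myh1* was called lower at a filter of 5 TPM, with sample quality weights or without normal replicate 1. Myoglobin (*Mb*) was at 934 to 1884 TPM in normal and 166 to 471 TPM in abnormal samples. Slow fiber genes summed to 2.86 to 13.1 TPM in normal and 5.44 to 8.77 TPM in abnormal samples, with none of 7 called by limma and 2 at an unadjusted p under 0.05. Cardiac genes summed to 0.278 to 1.31 TPM in normal and 1.08 to 3.11 TPM in abnormal samples. Their part in the levels of *Atp2a2*, *Sln* and *Casq2* was not tested. With the *Myh4* share as a covariate *Casq1* (0.43, adjusted p = 0.0372) and *Sln* (2.72, adjusted p = 0.0333) passed between abnormal and normal fibers, and *Atp2a2*, *Srl*, *Hrc* and *Asph* did not.

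Among 5988 other genes with a mean of at least 5 TPM, those whose log2 levels followed a member most closely over the 12 samples are given as a description, since all values share the same libraries and groups. The closest to *Atp2a1* were *Eprs* (Pearson r = 0.980), *Vps41* (0.978) and *Ccdc97* (0.976). The closest to *Sln* were *Tsg101* (0.946), *Plekhb1* (0.940) and *Wdr44* (0.939). *Plekhb1* had means of 63.6, 93.3 and 151 TPM in Young, normal and abnormal fibers. The closest to *Casq1* were *Pnck* (0.949), *Pgm1* (0.931) and *Htra4* (0.930), and *Htra4* had means of 11.8, 0.772 and 11.1 TPM in the same order.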

How the data were processed

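Libraries were made by the authors with SMART-Seq v4 from 10 ng of total RNA, a kit that does not keep strand. Reads were aligned to GRCm39 with DRAGEN (version 4.3 per the methods), and the authors deposited 1 list of TPM per sample, each scaled to the same total. The annotation release was not given in the sources used here. The depth of the samples is unknown, so no counting interval was given. Each list had 55487 lines. Lines of the same symbol (114 symbols) were summed, which left 55367. Symbols were placed with GENCODE vM39 and RefSeq.

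Protein-coding and mitochondrially encoded genes with a mean of at least 0.02 TPM in 1 group (14430) were tested on log2(TPM + 1) with limma 3.58.1 in R 4.3.3, as 1 fit of the 3 groups with a variance trend and Benjamini-Hochberg adjustment over all genes, at a threshold of 0.05. The test was run on simulated data with genes drawn independently and no pairing or difference of scale between samples. That run therefore does not show how the calls depend on pairing or scaling. Within-sample ratios were compared by two-sided exact permutation over 70 arrangements, adjusted over 12 tests. Other scalings, pseudocounts, filters, covariates, the replicate block, each sample left out and other members of the ratios were tried as alternatives. The text names the 9 genes and the list genes that passed between abnormal and normal fibers. The other pumps and micropeptides are named as well, except that *Erln* could not be matched to a symbol and has no value. Also named are the 3 genes closest to *Atp2a1*, *Sln* and *Casq1* among those at 5 TPM or more. *Trdn* and *Rcn1*, the *Myh1*, *Myh2* and *Mb* values, single values of the immune and smooth muscle markers and the positions of overlapping genes were added after the values were seen. Members and lists were chosen with earlier results of these data known.

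The labels do not say that samples came from separate animals, so p-values measure the spread between these samples. Same-numbered aged samples deviated together over 5994 genes (correlations of 0.438, 0.375, 0.430 and 0.302, against -0.365 to 0.234 for other numbers). The number was used as a pairing only in the replicate block and where same-numbered samples were compared. The main fit and the exact permutation tests did not use it, so their p-values between the aged groups leave the pairing out. Exon overlaps came from GENCODE vM39. A search of the transcripts at 95% identity over at least 200 bases found, beside overlapping genes, 1 pseudogene (*Gm30970*, 316 bases of *Atp2a2*). No protein sequences were used here.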

Additional observations from a re-analysis of the deposited data

Results flagged for a closer look

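In 39 groups of 4 values (9 genes and 4 ratios in 3 groups) 1 sample stood apart from the others, where chance alone would flag about 5% of groups. The log2 pump to inhibitor ratio of Young sample 4 was 15.06, and the next Young sample was at 14.63, a gap of 0.881 of the range of the group. *Sln* and *Pln* together were at 0.282 and 0.275 TPM in that sample, near the limit of what TPM lists of unknown depth resolve.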

How the results depend on the processing

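Members called between Fluo-4 abnormal and normal fibers numbered 6, and 1 with TMM-type scaling or with only the groups compared, 2 with the *Myh4* share as a covariate, 3 with scaling without mitochondrially encoded genes, no filter, all annotated symbols or no variance trend, and 1 to 5 with 1 sample left out. The count was 7 with the replicate block and 2 with the replicate block and TMM-type scaling, a pair chosen after seeing the data. Among the 9 genes the block changed only the call of *Atp2a1*, and ratios kept their values because every sample has a pair. Between normal and Young fibers the count was 1, and 2 with TMM-type scaling (*Srl* added) or a pseudocount of 0.1 (*Sln* added), and 1 to 2 with 1 sample left out. Between abnormal and Young fibers it was 1 under all 18 alternatives. TMM-type factors were 1.04 to 1.16 in abnormal and 0.823 to 1.01 in normal samples.

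Signs turned only for changes that did not pass. With the *Myh4* share as a covariate *Pln* and *Casq2* went to 0.077 and 0.085 between abnormal and normal fibers. Between abnormal and Young fibers TMM-type scaling gave -0.018 for *Pln*, -0.11 for *Srl*, -0.017 for *Hrc* and -0.14 for *Asph*, and scaling without mitochondrially encoded genes gave -0.0087 for *Asph*. With 1 sample left out, *Pln* ran from -0.21 to 0.034 between abnormal and normal, from -0.045 to 0.12 between abnormal and Young and from -0.011 to 0.23 between normal and Young fibers. Between abnormal and Young fibers *Srl* then ran from -0.047 to 0.096 and *Asph* from -0.047 to 0.10. With *Mrln* among the inhibitors the log2 pump to inhibitor ratio was 0.10, 0.22 and 0.12 in place of -1.49 (abnormal against normal), -3.83 (abnormal against Young) and -2.34 (normal against Young). Taking *Atp2a1* alone as the pump, *Sln* alone as the inhibitor, or *Srl* and *Hrc* as further buffers kept the direction of every ratio. No ratio passed with these choices. Too few tests were at the smallest exact p for such a change of 1 ratio to bring it past the threshold. The log2 pump to calsequestrin ratio between abnormal and normal fibers, -0.085, ran from -0.21 to 0.020 with 1 sample left out. Where no value shows the cause, the cause was not tested.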

Other observations

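Calcium removal from the cytosol by other routes was read from 7 genes, 6 of them tested, and none passed in any of the 3 comparisons by limma (3, 2 and 2 had an unadjusted p under 0.05 in abnormal against normal, abnormal against Young and normal against Young fibers). Between abnormal and normal fibers *Atp2b1* passed with the replicate block, without abnormal replicate 1 and, with *Pvalb*, at a filter of 5 TPM. Against Young fibers *Slc8a3* was called higher in abnormal fibers under 4 alternatives (a filter of 5 TPM, only the groups compared, sample quality weights and the *Myh4* share as a covariate). *Atp2b3* was called lower there with TMM-type factors or without the variance trend, and *Pvalb* was called lower in normal than in Young fibers at a filter of 5 TPM. Parvalbumin (*Pvalb*), the soluble calcium buffer of fast fibers, was at 23051 to 25084 TPM in Young, 17014 to 22641 TPM in Fluo-4 normal and 21358 to 25897 TPM in Fluo-4 abnormal samples. All normal samples were below all Young samples, with a change of -0.35 (adjusted p = 0.177, limma), and the change between abnormal and normal fibers was 0.30 (adjusted p = 0.119). *Slc8a3*, a sodium-calcium exchanger of muscle, was at 15.2 to 27.3 TPM in normal and 25.9 to 30.6 TPM in abnormal samples, and *Atp2b1*, a pump of the plasma membrane, at 13.7 to 20.0 and 17.5 to 30.6 TPM.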
